A study of Homo sapiens with 2 samples.

Results

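Some RBMS3 deletion sites lie inside a 3′UTR, away from any annotated transcript end downstream, and still sit beside the poly(A) signal AATAAA or its variant ATTAAA. Such sites numbered 2775 of the 27706 sites in the RBMS3 list, in 1152 genes, each of them protein-coding. A site is the position of a deletion in the sequenced RNA tags, read as the footprint of a crosslink between RBMS3 and the RNA. The sites were selected on measured values and on sequence: the deleted base lay in a 3′UTR of GENCODE release 44 on the same strand, under 30% of the tags over it carried the deletion, the nearest annotated transcript 3′ end of the gene downstream was more than 100 nt away, and AATAAA or ATTAAA lay within 25 nt on either side. Distance, deletion percentage and the presence of a signal are therefore descriptions of the choice and not findings. Distances were counted on the genome. When neighbours at most 50 nt apart were merged, they formed 1363 clusters.

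The cells were MDA-MB-231, a cell line from a triple-negative breast cancer, stably transduced with a lentiviral pLX302EF1a vector that carries RBMS3 with an N-terminal 2xFLAG tag. RBMS3 was thus expressed from a transgene, and all cells used here carried it. CLIP-seq was done in 2 biological replicates, which the authors pooled into 1 list, and no control library was analysed here. No value below has a replicate error, sites of a gene are not replicates, and differences between kinds of sites were given without a test.

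Most human pre-mRNAs are cleaved shortly downstream of a poly(A) signal, which the cleavage and polyadenylation specificity factor reads, and then receive a poly(A) tail. Upstream UGUA elements bound by cleavage factor I and U-rich or GU-rich elements downstream of the cleavage point help to define such an end. Many genes carry several signals in a row, and use of an upstream signal gives a shorter 3′UTR, which is known as alternative polyadenylation. RBMS3 is a single-stranded nucleic acid-binding protein with RNA recognition motifs that is known to bind AU-rich elements of 3′UTRs.

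The sequences that carry the result are the surroundings of the signals themselves. Shown first are the sites with the most deletions, one per gene, as 30 bases of the transcript strand from hg38, in DNA letters, with the poly(A) signal in capitals. CCN1 lay at chr1:85583672-85583701 on the plus strand, IGFBP7 at chr4:57031077-57031106 on the minus strand, HNRNPA2B1 at chr7:26191848-26191877 on the minus strand, PRSS23 at chr11:86809134-86809163 on the plus strand, HSPA9 at chr5:138555341-138555370 on the minus strand, MFSD14B at chr9:94460885-94460914 on the plus strand, PGRMC2 at chr4:128270148-128270177 on the minus strand, ACTN4 at chr19:38730497-38730526 on the plus strand and POLR2J at chr7:102473464-102473493 on the minus strand.
CCN1: gaattaaccatttAATAAAgaaatatttac
IGFBP7: ttaaacaAATAAAatactttttatcacaac
HNRNPA2B1: catttatgatttAATAAAataattctaaag
PRSS23: tttcaaagatttatATTAAAtatttggcat
HSPA9: ttttttttttttaAATAAAtacagaaagca
MFSD14B: tcctaatgcatAATAAAtttacagtggtta
PGRMC2: aagtaccattttAATAAAgcatgtacaata
ACTN4: caggatAATAAAacatgtaatatttttaag
POLR2J: taggttttatattcctAATAAAgtatagcg

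Counted from 1 at the 5′ end of the printed stretch, the deleted base was T at 11 in CCN1, T at 12 in HNRNPA2B1, PGRMC2 and HSPA9, T at 10 in PRSS23 and T at 8 in POLR2J, all upstream of the capitals. It was T at 22 in IGFBP7, T at 18 in MFSD14B and T at 23 in ACTN4, all downstream of them. In these 9 genes the deleted base was thus a T of a run of T outside the signal. ADAM9, which ranks between PRSS23 and HSPA9 by deletions, is not printed, and there the deleted base was an A, the first base of its AATAAA. A deletion within a run of equal bases cannot be placed on 1 base of it. The list gives the lowest coordinate of the run, which is its 5′ end on the plus strand and its 3′ end on the minus strand.

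SEC62, a component of the protein translocation machinery of the endoplasmic reticulum, held 5 separate clusters in 1 3′UTR, the most of any gene. The strongest site of each is shown in transcript order, because they were spread along part of a long 3′UTR. They lay on the plus strand at chr3:169994139-169994168, chr3:169994311-169994340, chr3:169994589-169994618, chr3:169995477-169995506 and chr3:169996445-169996474.
SEC62 cluster 1: aatatcaaatttaaAATAAAgataatgaaa
SEC62 cluster 2: aataatgaatATTAAAtgatttttcttcag
SEC62 cluster 3: tagtttctttttagcaAATAAAtgttcatt
SEC62 cluster 4: attcaggaagtAATAAAttttaatatatca
SEC62 cluster 5: caattctcttgcaccATTAAAtagtgtgtt

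The clusters of SEC62 lay 4225, 4043, 3777, 2879 and 1920 nt upstream of the next annotated end. Tags over their strongest sites were 9239, 350, 288, 2295 and 4718 in that order, so the second and the third cluster were the most thinly covered and the first the most deeply. Deletions were found in 212, 44, 41, 49 and 85 of these tags. The site with the most tags within 100 nt of an annotated end of SEC62 had 16771 tags, and the ratio of the deepest internal site to it was 0.562.

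Across all 2775 sites the number of tags over a site ranged from 122 to 108179, with a median of 5530 (quartiles 2390.5 and 12910.5). The number of tags with the deletion ranged from 32 to 3572, with a median of 70. The deletion percentage had a median of 1.70% (quartiles 0.762% and 3.49%). Internal 3′UTR sites under 30% without either hexamer, 1625 in number, had fewer tags (median 3308) and a higher percentage (median 2.42%). Sites with a signal within 100 nt of an annotated end, which are called end-proximal here and numbered 10579, had more tags (median 7806) and a lower percentage (median 1.39%). The internal sites with a signal lay between these kinds of site in both measures. In each kind the lowest number of deletions was 32, so a site with few tags could be listed only at a high percentage. The opposite order of tags and percentage is thus partly set by the list, here and in the comparisons below. Tags over a site follow the abundance of the RNA as well as its binding, which cannot be told apart in this list, and intervals of single sites (95% Wilson) cover counting error only.

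The median distance to the next annotated end was 806 nt (quartiles 275 and 1874.5 nt, highest 15975 nt). By number of sites, 609 lay 101 to 250 nt away, 479 lay 251 to 500 nt, 497 lay 501 to 1000 nt, 536 lay 1001 to 2000 nt and 654 lay farther than 2000 nt. The sites were thus spread over the whole range and were not a fringe of the 100-nt limit. Depth was somewhat lower far from the end, with median tags of 6453, 6780, 5464, 4159 and 4483.5 in these 5 ranges.

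Of all 4400 internal 3′UTR sites under 30%, 63.1% had AATAAA or ATTAAA within 25 nt. As a background, 8.09% of the 4456379 positions more than 100 nt from the next annotated end in the 3′UTRs of the 1152 genes had one in the same window on the transcript strand. Sites with a signal made up 65.1%, 61.8%, 62.8%, 64.0% and 61.7% of the internal sites in the 5 distance ranges, whereas the share of positions was 9.28%, 8.57%, 8.31%, 8.05% and 7.56%. The share near sites hardly changed with distance from the annotated end. Since the signal is part of the rule, these values describe the choice.

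**Figure D1:**
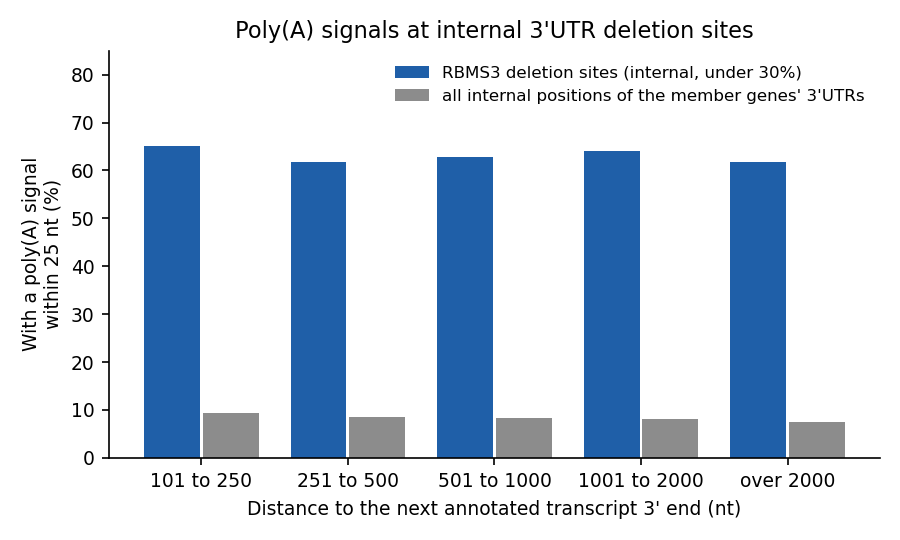
Share (%) of internal 3′UTR deletion sites under 30% (blue bars) and of all internal positions in the 3′UTRs of the member genes (grey bars) that have AATAAA or ATTAAA within 25 nt, by distance in nt to the next annotated transcript 3′ end. The blue bars stay between 61.7% and 65.1%, and the grey bars between 7.56% and 9.28%.

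AATAAA, the stronger of both hexamers in general, was the nearest signal at 2038 of the 2775 sites (73.4%) and ATTAAA at 737. Among end-proximal sites with a signal, AATAAA was the nearest at 80.2%. Sites beside AATAAA had more tags (median 5880) than those beside ATTAAA (median 4664) and a lower deletion percentage (median 1.63% against 1.99%). The share of AATAAA was 75.4%, 72.9%, 69.0%, 75.7% and 73.5% in the 5 distance ranges, from the nearest to the farthest. More than 1 signal lay within 25 nt at 297 sites (10.7%).

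The rule asked only that a signal be in the window, so the place of the deletion relative to it was left free between 20 nt upstream and 25 nt downstream of the first base of the signal. The median place was 1 nt downstream of that first base (quartiles −7 and 10), and at end-proximal sites it was 0 (quartiles −7 and 9). The deletion lay upstream of the hexamer at 1242 sites (44.8%), inside it at 405 (14.6%) and downstream of it at 1128 (40.6%). At end-proximal sites these shares were 46.5%, 17.1% and 36.4%.

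The profile around the signal had a flank on each side. Per nt, sites were most frequent 6 to 15 nt downstream of the first base (3.22% of the sites per nt) and in the 10 nt upstream of it (2.87% per nt), and they thinned out to 1.60% per nt 11 to 20 nt upstream. At 16 to 25 nt downstream only 0.847% of the sites fell on each nt, and at end-proximal sites 0.648%. When signals were looked for up to 50 nt away, which goes beyond the rule, 408 of 3237 internal sites (12.6%) had the deletion 21 to 45 nt upstream of the nearest signal and 54 (1.67%) had it 26 to 50 nt downstream. For end-proximal sites the numbers were 1538 (12.6%) and 111 (0.908%) of 12228. In both kinds of site the downstream side thus held fewer deletions than the upstream side at these distances. At 20 to 24 nt downstream the share was 2.29% of internal and 1.24% of end-proximal sites. End-proximal sites had to lie upstream of a nearby annotated end, at a median of 19 nt for those with a signal. Positions far downstream of the signal can thus be cut off for them, but not for internal sites. The part of this limit in the differences far downstream was not tested.

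**Figure D2:**
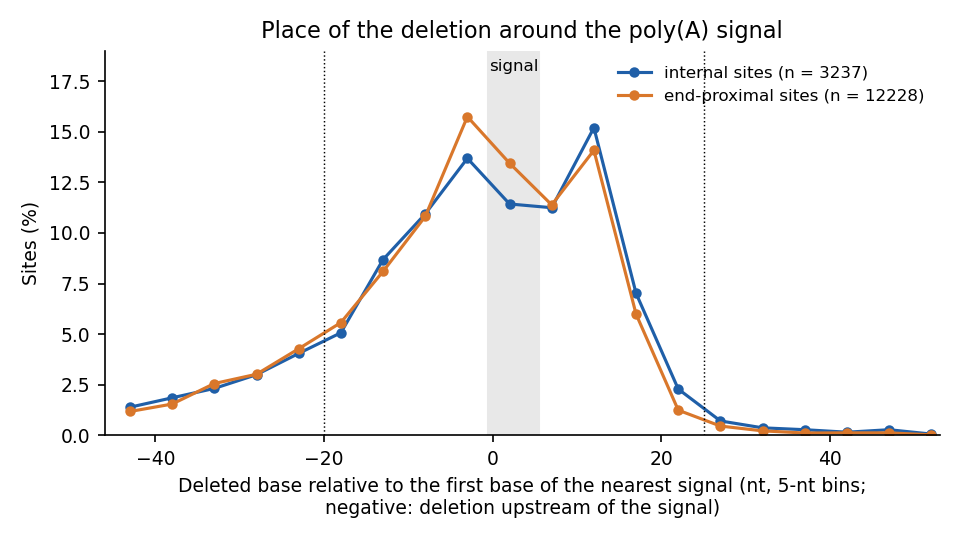
Share (%) of sites in 5-nt bins of the position of the deleted base relative to the first base of the nearest signal, with signals looked for up to 50 nt away, for 3237 internal sites (blue) and 12228 end-proximal sites (orange). The grey band is the signal and dotted lines mark the range of the rule; both curves peak on each side of the signal and drop beyond about 20 nt downstream.

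CCN1, which encodes a secreted matricellular protein, shows this profile at 1 signal. It held 13 sites in a single cluster, all beside the AATAAA printed above. The tags over them rose from 39640 at 20 nt upstream of the first base of the signal to 78919 at the first base itself, and were 69968 at 12 nt downstream. The largest numbers of deletions were 3572 at 3 nt upstream, 1256 at 7 nt downstream and 1036 at 12 nt downstream, and 219 were found at the first base. Deletions were thus concentrated in the runs of T and A on both flanks, while coverage changed gradually across the signal.

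The deleted base, which the rule did not name, was T at 1791 sites (64.5%), A at 671 (24.2%), C at 180 (6.49%) and G at 133 (4.79%). Internal sites without a signal had T at 76.8% and A at 11.9%, and end-proximal sites with a signal had T at 60.8% and A at 26.8%. The required hexamer itself supplies A, however. At the 2370 sites whose deletion lay outside the nearest signal, T made up 73.0% and A 13.8%, close to internal sites without a signal, and at end-proximal sites outside the signal T was 70.4% and A 14.7%. Sites beside ATTAAA had T at 74.2% and those beside AATAAA at 61.0%. At the 431 sites with a deleted base unlike the bases beside it, T made up 34.8%, so the excess of T rested largely on runs of T. T in a run of at least 3 accounted for 44.3% of all the sites. With only the site with the most deletions kept in each cluster, T rose to 75.8%.

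Deletions inside the signal reflected in part its own bases. An A was deleted at 308 of 341 sites inside AATAAA (90.3%), of which A makes up 83.3%, and at 36 of 64 inside ATTAAA (56.2%), of which it makes up 66.7%. Of the 2038 sites beside AATAAA, 233 (11.4%) were at the first 2 bases, 33 (1.62%) at the T and 75 (3.68%) at the last 3 bases. Of the 737 beside ATTAAA, 34 (4.61%) were at the first 2 bases, where 17 had a deleted A and 17 a deleted T. A further 11 were at the next T and 19 at the last 3 bases. Both T of ATTAAA form 1 run, listed at its first T on the plus strand and at its second on the minus strand. The 17 and 11 deleted T thus belong to the same pair and are not frequencies of separate bases. Of sites beside AATAAA, 8.91% on the plus strand were listed at its first base and 14.2% on the minus strand at its second, the ends at which the list places deletions in the opening pair of A. In end-proximal sites these shares were 9.91% and 15.6%.

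Long runs of T were rare, with 19 sites in runs of at least 8. Their median deletion percentage was 9.62% against 1.68% at all other sites, and their median tags were 1129 against 5582. HSPA9 is the strongest of them: its T run has 13 bases, and 1477 of 12348 tags (12.0%, interval 11.4 to 12.5%) had the deletion. RBMS2, a close relative of RBMS3, had 216 deletions in 1986 tags (10.9%) at a T run of 12. Deletions in long runs can also arise in reverse transcription or sequencing, and their part in these percentages was not tested.

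The protocol added a poly(A) tail to the RNA and then captured and primed it with oligo(dT), so runs of A in the transcript bear on where tags can start. A run of at least 6 A lay within 50 nt downstream of the deletion at 303 sites (10.9%). It was present at 25.5% of internal sites without a signal, at 8.17% of end-proximal sites with a signal and at 16.01% of those without. With at least 7 A among 10 nt the shares were 46.0%, 54.7%, 43.0% and 53.7%. Such runs were less frequent beside the sites described here than at internal sites without a signal under both definitions, and the part of internal priming in any site was not tested. TMED7, which encodes a cargo receptor of the early secretory pathway, is an example with such a run directly after its signal. Its strongest site is shown for that reason, at chr5:115613509-115613538 on the minus strand, with the signal in capitals.
TMED7: aatttcttgtagAATAAAaaaaaatctttc

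The AUA motif (A, G or T, then A or T, then ATA, then A or T, then A, on the transcript strand) overlaps the poly(A) signal, because a T or other allowed base before AATAAA completes it. Within 25 nt on either side it was present at 68.1% of the sites, but at 14.2% when matches that contain AATAAA or ATTAAA were left out. Internal sites without a signal had a match at 25.05%, and end-proximal sites with a signal had one apart from it at 13.1%. The core of the motif (A or T, ATA, A or T) apart from the signal was present at 39.0% of the sites, against 53.5% and 35.2%. For the core, each match that shares any base with a signal was left out, a stricter limit than for the whole motif. Sites without a signal lose no match in this way, so the 39.0% and 53.5% are not counted over equal room. Beside AATAAA the whole motif was present at 85.6% of the sites and apart from the signal at 14.4%. Beside ATTAAA, which the motif cannot contain, these shares were 19.5% and 13.7%. Most sites with an AUA match thus had it only as AATAAA with its neighbour, which was not so beside ATTAAA.

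Seen from the signals, the 3′UTRs of the 1152 genes contained 8471 AATAAA or ATTAAA hexamers more than 100 nt upstream of an annotated end. Of these, 1498 (17.7%) had one of the sites within reach, 87 had another site only, and 6886 had none. The share with a site was 22.0% of 4723 AATAAA and 12.2% of 3748 ATTAAA. Coverage is only listed at sites, so the amount of RNA over hexamers without one is not known from it, and its part in the following differences was not tested.

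Signals with a site differed in their surroundings from those without. Internal signals with and without a site lay in 1108 and 1030 of the genes above. End-proximal signals came from a larger set of genes, 4079 and 3030 in the same order. The part of this difference in genes in the comparisons of internal with end-proximal signals was not tested. UGUA was found within 80 nt upstream of 60.5% of internal signals with a site and of 37.0% of those without, and of 62.8% of end-proximal signals with a site and 45.9% of those without. At 31 to 80 nt upstream, outside the window of the rule, the shares were 38.7%, 25.6%, 41.8% and 30.95% in the same order. GUGU or UGUG was found within 60 nt downstream at 42.9%, 31.7%, 48.3% and 37.9%, and at 31 to 60 nt downstream at 21.4%, 16.5%, 26.4% and 19.5%. The internal signals with a site thus stood closer to the end-proximal signals with a site than to the other hexamers of the same 3′UTRs in these shares, except for GUGU or UGUG at 31 to 60 nt, where they lay midway. The difference was found with either hexamer: UGUA within 80 nt upstream was at 59.8% against 36.2% for AATAAA and at 62.1% against 37.9% for ATTAAA.

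**Figure D3:**
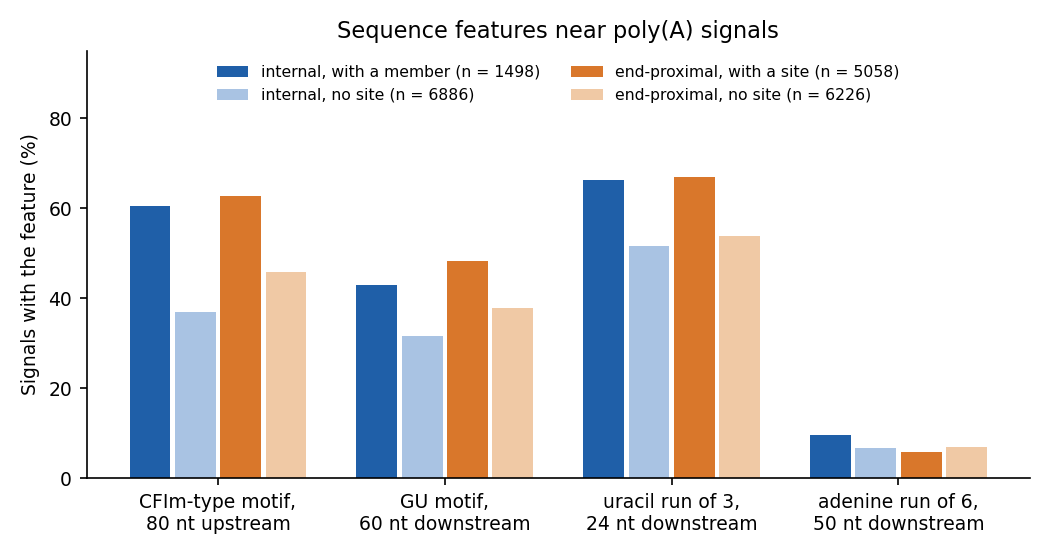
Share (%) of poly(A) signals with UGUA within 80 nt upstream (labelled CFIm-type motif), GUGU or UGUG within 60 nt downstream (GU motif), a run of at least 3 uracils within 24 nt downstream and a run of at least 6 adenines within 50 nt downstream, for internal signals with a member site, internal signals without a site, and end-proximal signals with and without a site. Bars are shares of all signals of a kind and have no error, and end-proximal signals came from a larger set of genes. Internal signals with a member reach 60.5%, 42.9%, 66.4% and 9.68%.

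Base composition followed the same pattern for uracil, but adenine was closer to internal signals without a site. At 31 to 45 nt downstream of the first base of the signal, beyond the reach of the rule, uracil made up 40.6% and adenine 27.8% around internal signals with a site. Around internal signals without a site uracil was 33.2% and adenine 32.1% there, and around end-proximal signals with a site they were 42.8% and 22.1%. At 60 to 89 nt downstream uracil was back at 35.2%, 33.6% and 32.9%. At 31 to 60 nt upstream it was 37.2%, 33.0% and 36.5%, so part of the higher uracil beside signals with a site was also present upstream. A rise of uracil above both of these levels and a dip of adenine at 31 to 45 nt downstream were therefore present at internal signals with a site. Both were smaller than at end-proximal signals with a site, and neither was seen over the other internal hexamers. A run of at least 6 A within 50 nt downstream was found at 9.68% of internal signals with a site, 6.62% of those without and 5.79% of end-proximal signals with a site.

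**Figure D4:**
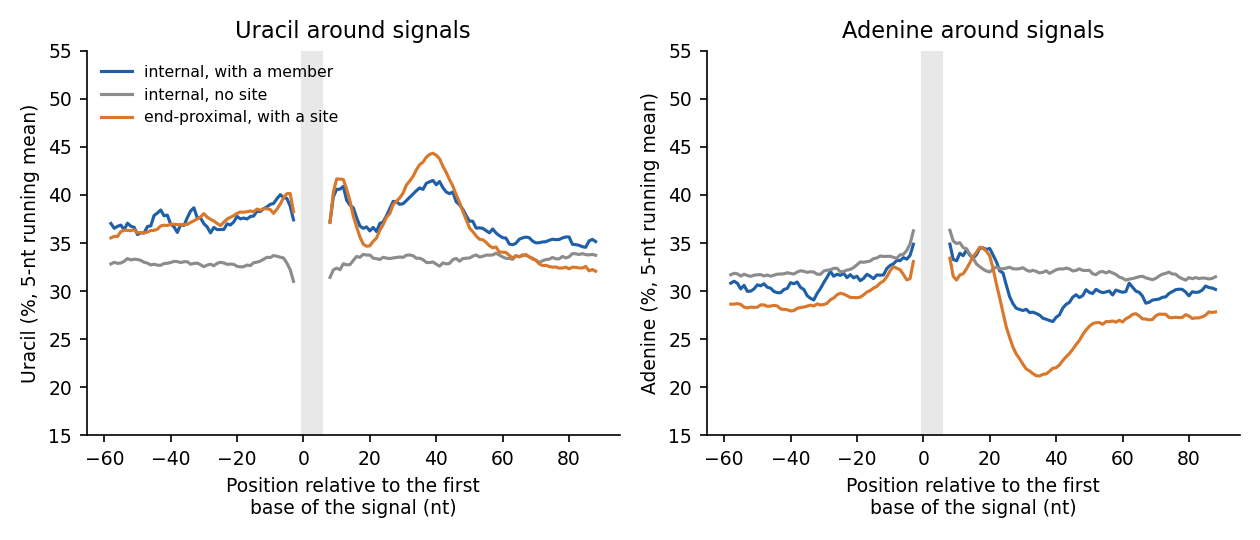
Share (%, running mean over 5 nt) of uracil and adenine at each position relative to the first base of the signal (nt, positive downstream), for internal signals with a member site (blue), internal signals without a site (grey) and end-proximal signals with a site (orange); the grey band is the signal. At 31 to 45 nt uracil averages 40.6%, 33.2% and 42.8% in these 3 kinds.

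Of the 1152 genes, 977 had 1 cluster, 145 had 2, 25 had 3, 4 had 4 and SEC62 had 5. A single site was present in 550 genes, and 392 genes also held an internal site without a signal. An end-proximal site under 30% was present in 598 genes (51.9%), with a signal of its own in 505. The other 554 genes had no such site at any annotated end, apart from 31 with an end-proximal site of 30% or more. Of the 4725 genes with an end-proximal site, 12.7% thus held an internal site with a signal.

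In the 598 genes with both, the deepest internal site had a median of 0.751 times the tags of the deepest end-proximal site (quartiles 0.242 and 2.17, range 0.00798 to 108). The internal site had more tags in 248 genes (41.5%), at least 2 times as many in 163, and the end-proximal site at least 2 times as many in 247. Neither position was the deeper one throughout. Both sites lie on the same gene, but the end-proximal site could be at any annotated end, also one upstream of the internal site. Its place relative to the internal site was not examined over these genes, and both can lie close together. Where it lies downstream, shorter and longer isoforms can both contain the internal position. The part of isoforms in this ratio was not tested.

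Among genes with at least 1000 tags at both, the ratio was highest in PGRMC2, a heme-binding membrane protein, with 54131 tags at the internal site and 1363 at the annotated end (39.7). It was 17.2 in TMED7 (23026 against 1341) and 13.5 in CRIM1, a membrane protein that binds growth factors of the BMP family (24569 against 1818). At the other extreme were TMEM245 with 1193 tags inside and 36048 at the end (0.0331), ERLIN1 of the endoplasmic reticulum with 1197 against 33819 (0.0354) and NCKAP1, a subunit of the actin-regulating WAVE complex, with 1428 against 38276 (0.0373). The deepest internal sites of PGRMC2, TMED7 and CRIM1 lay 908, 317 and 131 nt from the next annotated end.

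**Figure D5:**
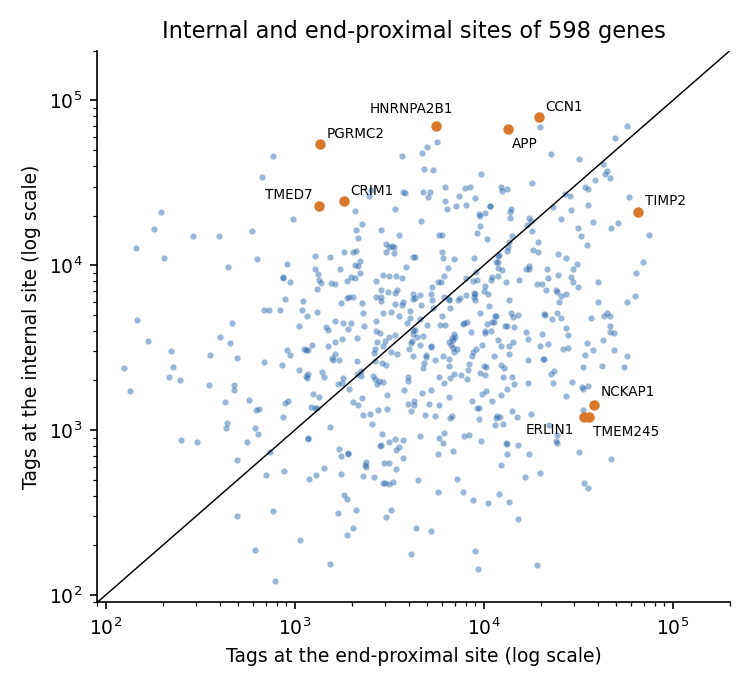
Tags at the deepest internal site with a signal (vertical) against tags at the deepest end-proximal site of the same gene (horizontal), both on log scales, for 598 genes (1 point each). The line marks equal numbers; 248 points lie above it, and genes named in the text are orange.

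The 10 genes with the most deletions had between 1276 and 3572 of them. CCN1 had 3572 in 77215 tags (4.63%, interval 4.48 to 4.78%), IGFBP7, an insulin-like growth factor-binding protein, 2872 in 89811 (3.20%, 3.08 to 3.31%), and HNRNPA2B1, a nuclear RNA-binding protein, 2675 in 70352 (3.80%, 3.66 to 3.95%). These intervals cover counting error only, and the 3 percentages were not tested against each other. PRSS23, a serine protease, had 2531 in 58742 tags (4.31%) beside ATTAAA, and it is the only one of the 10 with that hexamer. ADAM9, a membrane-bound metalloprotease, had 1720 in 59173 (2.91%) and was alone among the 10 in having its strongest deletion on an A, the first base of its signal. HSPA9, the mitochondrial Hsp70, had 1477, and MFSD14B, a membrane transporter-like protein, had 1343 in 43176 (3.11%).

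The other 3 of the 10 were PGRMC2 with 1292 deletions in 52818 tags (2.45%), the actin crosslinker ACTN4 with 1276 in 67266 (1.90%) and POLR2J, a subunit of RNA polymerase II, with 1276 in 18393 (6.94%). IGFBP7, MFSD14B and POLR2J had no end-proximal site under 30%. In HNRNPA2B1 the internal site, 1470 nt upstream of the next annotated end, had 12.5 times the tags of the end-proximal one, and in CCN1 the ratio was 4.02 and in PRSS23 3.49. In ACTN4 and ADAM9 both sites had about equal tags, with ratios of 1.23 and 1.19, and in HSPA9 the end-proximal site was the deeper one (18162 against 12348 tags, ratio 0.680). In CCN1, ADAM9 and HSPA9 an annotated end lay 29, 8 and 1 nt upstream of the strongest internal site. Their end-proximal site need therefore not be a separate place.

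An annotated transcript end can also lie just upstream of a site. It did so within 100 nt at 301 sites (10.8%) and within 40 nt at 186, among them CCN1 (29 nt), ADAM9 (8 nt) and HSPA9 (1 nt). In CCN1, ADAM9 and HSPA9 the signal lay downstream of that upstream end. At the other sites its place relative to such an end was not examined, and whether it belongs to that end was not tested. Without the 301 sites, 2474 remained, with T deleted at 64.6% and a run of at least 6 A at 11.03%. Both values were close to those over all the sites, and the median place relative to the signal stayed at 1.

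Of all 5435 genes with a 3′UTR site under 30%, 1152 (21.2%) held an internal site with a signal. Among genes known for tandem poly(A) sites, APP, EIF4E, ELAVL1, HMGA2, RHOA and TIMP2 held one. APP, the amyloid precursor protein, had 990 deletions in 47866 tags 283 nt from the next end, and 4.98 times the tags of its end-proximal site. TIMP2, an inhibitor of matrix metalloproteinases, had 559 in 21168, and EIF4E, the cap-binding translation factor, 130 in 3212, with ratios of 0.322 and 2.73. The small GTPase RHOA had 121 in 15037 (ratio 0.461), and HMGA2, a chromatin protein, had 133 in 6963 (0.694) only 102 nt from the next end. ELAVL1, which stabilises AU-rich mRNAs, had 197 in 5712 beside ATTAAA, 1363 nt from the next end, and no end-proximal site under 30%. Among these 6 genes the deeper position was the internal one in some genes and the annotated end in others.

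Of the cleavage and polyadenylation machinery, 4 of 15 genes with a 3′UTR site held one (26.7%). CSTF2T, a cleavage stimulation factor subunit, had 75 deletions in 2552 tags, PPP1CC, a phosphatase catalytic subunit, 71 in 7035, and CPSF2, a subunit of the factor that reads the signal, 64 in 5533. WDR33, the subunit that contacts AAUAAA, had 41 in 141 (29.1%, interval 22.2 to 37.0%) at the first base of a stop codon of 1 isoform, which the annotation counts in its 3′UTR. None of the 4 had an end-proximal site under 30%.

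Of RNA-binding proteins of 3′UTRs, 5 of 22 genes had such a site (22.7%): ELAVL1, HNRNPC, HNRNPD, RBMS2 and TNRC6A. HNRNPC had 164 deletions in 4393 tags and HNRNPD, which promotes decay of AU-rich mRNAs, 161 in 7058, both with fewer tags than at the annotated end (ratios 0.422 and 0.330). TNRC6A, a microRNA silencing factor, had 59 in 505. Of 13 genes in the study's screen, which were chosen in part on these libraries and are no independent evidence, 3 had one (23.1%): ALDH2 with 346 deletions in 8325 tags, HMGB3 with 128 in 3813 and BZW1 with 83 in 2909. These shares lay near the 21.2% of all genes.

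Other genes with several clusters were TMED7, TM9SF3, HNRNPA0 and NUFIP2, with 4 each. In TMED7 the strongest sites had 22322, 1301, 2720 and 481 tags from the 3′ end inwards, so the cluster nearest the annotated end, still 314 nt away, dominated. In TM9SF3, a member of the nine-transmembrane family, they had 1177, 9945, 4608 and 3999 tags, and the ratio to the end-proximal site was 2.66. HNRNPA0, an RNA-binding protein, had 325, 2253, 2272 and 2806 tags and no end-proximal site under 30%. NUFIP2, a partner of the FMRP protein, had 697, 2568, 1876 and 2047 tags, spread over several kilobases. Depth within a gene thus differed severalfold between the shallowest and the deepest cluster.

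Just inside the limit of 30% lay SLC9A7 with 36 deletions in 122 tags (29.5%) and WDR33, and just outside it STARD4 with 132 in 439 (30.1%) and CDS2 with 44 in 146 (30.1%). Their intervals overlapped widely. At the distance limit, PLBD2 and AIMP1 lay 1 nt beyond it, with 5530 and 1209 tags, and HVCN1 and RNF113A lay exactly at 100 nt, with 511 and 168. The percentage limit left out 333 further internal sites with a signal, with a median of 21 tags.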

How the data were processed

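RBMS3 CLIP-seq of MDA-MB-231 cells gave 2 libraries in 1 group. Replicate 2 has a title that names MDA-MB-231, but its source label reads MDA-MB-232; it was treated as the former. Cells were crosslinked with ultraviolet light, RNA was trimmed with RNase, RBMS3 was recovered through its FLAG tag, and the RNA was tailed and primed with oligo(dT) carrying molecular identifiers. The authors aligned reads to hg38 with the CLIP Tool Kit, collapsed them to unique tags, pooled both replicates and listed deletion sites under a false discovery rate of 10% and above a fold whose definition is not given in the sources used here. The deposited values are raw counts per site of tags covering it and of tags with the deletion, and are not normalized. Replicates could not be compared, a site can rest on 1 of them, and library totals were not analysed here. Depth is given per site. No column of other samples was left aside (0).

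The deleted base was the centre of each 21-nt interval, in coordinates counted from 1. Sites were placed on GENCODE release 44, all transcripts, whose 3′UTR feature includes the stop codon. Hexamers and motifs were searched on the transcript strand of hg38. Backgrounds were exhaustive counts over positions and hexamers. Members, gene lists and alternatives were chosen with earlier results of these data known. Named genes were the 10 with the most deletions, the 5 with the most clusters, the 3 highest and 3 lowest ratios, up to 6 per list and those at the thresholds. Some items, among them the count over the list of genes with tandem poly(A) sites, are not reported here. No tests were made. Functions were tested on simulated data. Python 3.11.15, numpy 2.4.6, pandas 2.3.3, SciPy 1.17.1, pysam 0.24.0 and matplotlib 3.10.9 were used.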

Additional observations from a re-analysis of the deposited data

How the results depend on the processing

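Since the authors pooled the tags, no result could be recomputed without 1 of the replicates. No paired analysis was possible because the columns carry no replicate. Of 97 combinations of a result and an alternative, 8 used a minimum of 20 deletions, which removed no site. Of the other 89, 67 stayed within the 95% interval of the reported value and 22 moved. This interval (Wilson for shares, binomial ranks for medians) counts sites or genes as if independent. Sites cluster and most alternatives use many of the same sites, so it only scales the size of a move and measures no error. The cause of these moves was not tested beyond the construction of each alternative.

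With at least 50 deletions a site, 65.6% of internal sites had a signal and 44.8% of the genes an end-proximal site. With a window of 15 nt, 47.6% had a signal, T was deleted at 60.5% and a run of A followed 9.79%. With 50 nt these were 73.6% with a signal and 66.6% with T, and the median offset was -1. With 1 site per cluster, AATAAA was nearest at 70.9%, T deleted at 75.8% and 48.2% of genes had an end-proximal site. With 1 representative transcript per gene there were 5247 sites, 64.8% of internal sites had a signal, T was at 62.3%, 31.7% of genes had an end-proximal site and the median ratio of tags was 0.958 in place of 0.751. AATAAA alone was found at 47.5% of internal sites, and both hexamers or 10 further variants at 81.3%. T made up 34.8% where the deleted base stood alone. At least 7 A in 10 nt followed 46.0% and 6 A within 100 nt 15.3%. The AUA core apart from the signal was at 39.0%. An end-proximal site with a signal was present in 43.8% of genes. Few deletions per site limit weakly covered 3′UTRs: no site described had under 32.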

Other observations

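Of the 1625 internal 3′UTR sites under 30% that had neither AATAAA nor ATTAAA within 25 nt, 801 (49.3%) had one of 10 further single-base variants of AATAAA in the same window. Of the 3048698 internal positions without either hexamer in the 3′UTRs of the same 839 genes, 20.7% had one. Among end-proximal sites without either hexamer the share was 45.6%.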
